A study of Mus musculus with 2 samples.

Results

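The genes described here encode the lysosome of the macrophage: the proton pump that acidifies it, the proteases inside it, its membrane proteins and other lumenal proteins, and the transcription factors that drive their genes. They are 43 genes of the 55536 annotated in the tables, taken by symbol from a list whose rule uses no measured value, though it was drawn up with earlier results of these data known, and all 43 were found. They comprise 18 genes of the vacuolar H+-ATPase (V-ATPase), 9 cathepsins, 6 membrane proteins, 6 other lumenal proteins and the 4 factors of the MiT family (Tfeb, Tfe3, Mitf and Tfec). The cells were bone marrow-derived macrophages, primary cells grown from the marrow of C57BL/6J mice, after 75 min with 100 ng/ml lipid A, the part of bacterial lipopolysaccharide that Toll-like receptor 4 recognises. Total RNA of the chromatin fraction, which holds transcripts still being made or processed, was depleted of ribosomal RNA and sequenced. There is 1 group with 2 libraries, labelled biological replicates 1 and 2, made from 250 and 500 ng of RNA, both with fragments of 250 to 400 bases and both from the same donor label; sex and age were not collected. Every SD therefore measures the spread between these 2 libraries, which may be technical. Unstimulated cells, other times and other fractions were not analysed here, so the values are levels under lipid A and no response to it was measured.

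The V-ATPase is a rotary pump: the cytosolic V1 sector hydrolyses ATP, and the membrane V0 sector carries protons into the lumen. The low pH that it makes activates the cathepsins, proteases that digest ingested and autophagic material and, in macrophages, trim antigens. When mTORC1 on the lysosome surface is inactive, MiT factors such as Tfeb enter the nucleus. There they bind the CLEAR element, an E-box with the core CACGTG, in the promoters of lysosomal genes.

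The E-box is shown first because the MiT factors are known to bind it in promoters of the other classes. RefSeq promoter windows on GRCm38.p6 (mm10 coordinates), which run from 250 bases before to 50 bases after a start, were held for 34 of the 43 genes. CACGTG, which reads the same on both strands, lay in the windows of 10 of those 34 genes (29.4%) against 8.91% of 17492 protein-coding genes. The longer palindrome TCACGTGA, which contains CACGTG, lay in 6 of the 34 (17.6%) against 1.41% of protein-coding genes. By class, CACGTG was found in 4 of 12 V-ATPase genes, 3 of 7 cathepsins, 2 of 5 membrane genes, 1 of 6 lumenal genes and 0 of 4 MiT factors. The motif was chosen because it is known from promoters of lysosomal genes, so its higher share here is not an independent finding. A match describes the letters of a window and is not evidence of binding, and no match says only that these letters are not in that window. The windows below are those that hold TCACGTGA, in capitals, 5′ to 3′ on the gene's strand.
Atp6v0d1 (chr8:105566050-105566079, minus strand): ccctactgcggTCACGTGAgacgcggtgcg
Atp6v0e (chr17:26676387-26676416, plus strand): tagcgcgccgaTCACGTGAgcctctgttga
Atp6v1a (chr16:44139373-44139402, minus strand): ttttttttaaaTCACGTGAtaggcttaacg
Ctsa (chr2:164833749-164833778, plus strand): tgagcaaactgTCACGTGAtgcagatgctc
Ctsd (chr7:142387908-142387937, minus strand): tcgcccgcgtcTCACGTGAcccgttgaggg
Mcoln1 (chr8:3500462-3500491, plus strand): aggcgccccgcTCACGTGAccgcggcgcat

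The flanking bases of these 6 sites differ while the 8 central bases are shared by the search. Counted from the RefSeq start, the first base of the motif lay at -4 in Atp6v0d1, 3 in Atp6v0e, -132 in Atp6v1a, -13 in Ctsa, -99 in Ctsd and -46 in Mcoln1. Ctsa held a further copy at 5. Lamp1 and Atp6v0b are shown next because they hold the core more than once close to the start, 4 times in Lamp1 and 2 times in Atp6v0b, with CACGTG in capitals.
Lamp1 (chr8:13159061-13159160, plus strand): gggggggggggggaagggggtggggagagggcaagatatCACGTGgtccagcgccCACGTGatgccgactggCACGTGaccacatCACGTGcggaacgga
Atp6v0b (chr4:117887330-117887389, minus strand): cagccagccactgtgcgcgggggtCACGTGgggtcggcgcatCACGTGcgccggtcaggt

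Ctsd and Mcoln1 each held a further CACGTG, at -245 and -71, outside the letters shown. The remaining genes with a match were Ctsl and Gaa, at -236 and -140 from their starts. A related octamer, TCATGTGA, searched on both strands and chosen after the promoter letters had been seen, was in Atp6v0c, Ctss and Grn, 3 of 34 genes against 1.00% of protein-coding genes. Of 30 other lysosomal genes with a window, 8 (26.7%) held CACGTG. The 10 genes with the core had a median of 38.6 TPM in replicate 1 and 69.0 in replicate 2, and the 24 without it 22.8 and 73.3 TPM, so the order of the medians differed between the replicates. TPM is a transcript's count scaled by its length and by the total of the table. It can be compared between genes, within the limits of the transcripts annotated for each.

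Nearly all of the lysosomal genes were present on chromatin. In each library 42 of the 43 genes reached at least 1 TPM, taken here as expressed, against 34.7% of 22028 protein-coding genes. At a mean percentile of 90 or more among 7625 expressed nuclear protein-coding genes were 21 of them, 6 lay under the 50th percentile and 3 under the 25th. The 43 genes held 0.716% (exact 95% binomial interval 0.712 to 0.719%) of the 21453621 counts on annotated genes in replicate 1. In replicate 2 they held 0.988% (0.985 to 0.992%) of 29638768 counts. Gpnmb and Tcirg1 alone gave 43.28% and 43.02% of those counts in the 2 replicates. The intervals cover counting error only.

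TPM was higher in replicate 2 for 42 of the 43 genes, all but Psap, which has to be read against all genes. The median TPM of expressed protein-coding genes was 5.81 in replicate 1 and 10.4 in replicate 2, and protein-coding genes held 14.0% and 24.99% of all TPM. An SD of TPM here thus contains a shift that protein-coding genes share. The rank order hardly moved: Spearman's rho over the 43 genes between the replicates was 0.970. It is given as a description, since both values of a gene come from the same condition and gene model.

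By class median, cathepsins were highest, at 60.5 and 98.0 TPM in the replicates (79.2 ± 26.5, SD, n = 2). Lumenal proteins followed with 61.7 ± 33.2 TPM and membrane proteins with 51.3 ± 32.1. The MiT factors had 30.6 ± 19.7 TPM and the V-ATPase genes 28.4 ± 12.0. These last classes changed places between the replicates, and between neighbours in the order the ranges over the replicates overlapped. Within the pump, the V1 sector had medians of 38.4 and 65.2 TPM, the V0 sector 13.97 and 25.04, and the accessory subunits 14.22 and 32.04. Within each class the genes spread more widely than the class medians did, as the plot of levels by class shows.

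**Figure D1:**
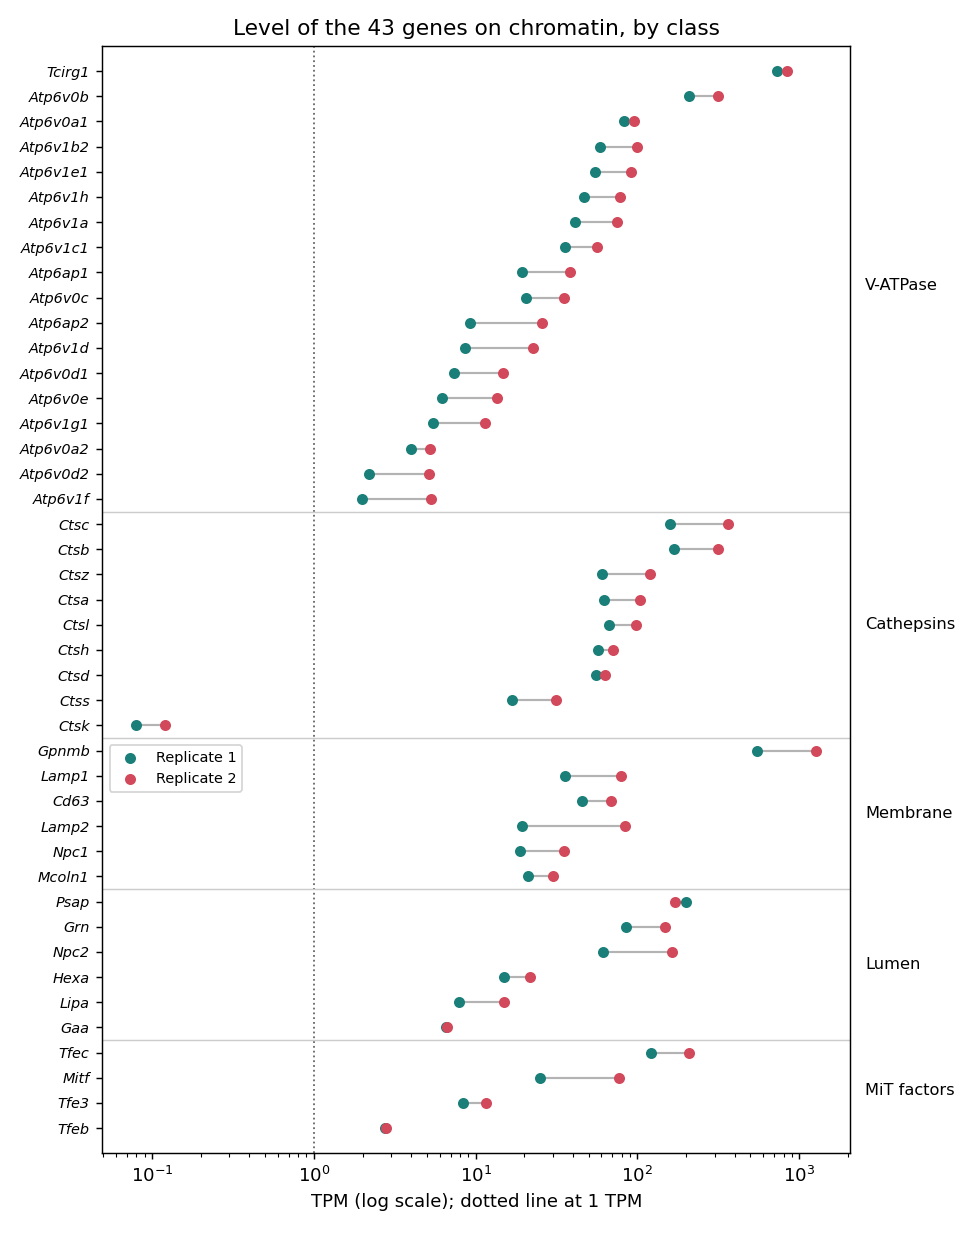
TPM of each of the 43 genes in replicate 1 (green) and replicate 2 (red) on a log axis, grouped by class and ordered by mean; grey lines join the replicates. Gpnmb and Tcirg1 lie furthest to the right, and Ctsk alone lies left of the dotted line at 1 TPM. Replicate 2 lies to the right of replicate 1 for all genes except Psap.

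In the V0 sector, Tcirg1 had the highest level of any V-ATPase gene, 734 TPM in replicate 1 and 841 in replicate 2. Tcirg1 (mm10 chromosome 19, 3896050 to 3907133, minus strand) encodes the a3 form of subunit a, the membrane arm that forms the proton path, and is known for its part in the osteoclast. Atp6v0b, the proton-carrying c'' subunit, followed with 208 and 315 TPM. The other ring subunit, Atp6v0c, had 20.6 and 35.3 TPM. The lowest V0 genes were Atp6v0d2 at 2.19 and 5.17 TPM and Atp6v0a2 at 4 and 5.23 TPM. Atp6v0d2 and Atp6v0a2 overlapped over the replicates, whereas Tcirg1 exceeded Atp6v0b in both. Atp6v0a1 had 82.6 and 94.8 TPM, Atp6v0d1 7.31 and 14.8, and Atp6v0e 6.17 and 13.6.

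In the V1 sector, the highest genes were Atp6v1b2, the non-catalytic B subunit, at 58.7 and 99.2 TPM, and Atp6v1e1, a peripheral stalk subunit, at 54.6 and 91.2 TPM. These values overlapped between the genes. Atp6v1a, the catalytic subunit that is present in several copies per pump like Atp6v1b2, had 41.2 and 74.5 TPM. The lowest were Atp6v1f, a subunit of the central stalk, with 1.98 and 5.28 TPM from 28 and 81 counts, and Atp6v1g1, of the peripheral stalk, with 5.49 and 11.4 TPM. The stalk subunit Atp6v1d had 8.61 and 22.8 TPM, and Atp6v1c1 and the regulatory Atp6v1h lay between 35.7 and 78.1 TPM. Chromatin RNA of the subunits of this single complex thus spread from 1.98 to 734 TPM in replicate 1. The accessory subunits Atp6ap1 and Atp6ap2, the latter also called the prorenin receptor, had 19.3 and 38.5, and 9.18 and 25.6 TPM.

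Several subunits are encoded by alternative genes, and a single gene led in each case. Tcirg1 held 89.5% of the summed TPM of the subunit a genes in replicate 1 and 89.4% in replicate 2, 8.90 and 8.87 times Atp6v0a1. Of Tcirg1's TPM, 65.2 and 61.1% lay on transcripts annotated as retaining an intron, and Atp6v0a1 has no such transcript. The size of the TPM ratio thus depends on the annotation. In counts, Tcirg1 had 30452 and 41545, and Atp6v0a1 had 5642 and 7529. Atp6v0a4, known from kidney, had 0 counts in both. For subunit d, the ubiquitous Atp6v0d1 held 76.9% and 74.1%, and Atp6v0d2, known from osteoclasts and kidney, held 23.1% and 25.9%. These shares depend on the annotation too. Of Atp6v0d1's TPM, 39.3 and 30.2% lay on a transcript annotated as retaining an intron, and Atp6v0d2 has no such transcript. The counts lay closer together, at 204 and 496 for Atp6v0d1 and 149 and 379 for Atp6v0d2. Atp6v1g1 held 83.1% and 89.0% of subunit G, with Atp6v1g2 at 1.10 and 1.40 TPM. The tissue-restricted Atp6v1b1, Atp6v1c2 and Atp6v1e2 had at most 1 count in either library. Of the 7 such restricted subunit genes, Atp6v1g2 was the only one expressed by the 1 TPM rule. Atp6v0e2 had 0 counts in these tables but 1.58 and 4.27 TPM in the authors' second quantification, which was made from the reads without the genome alignment.

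**Figure D2:**
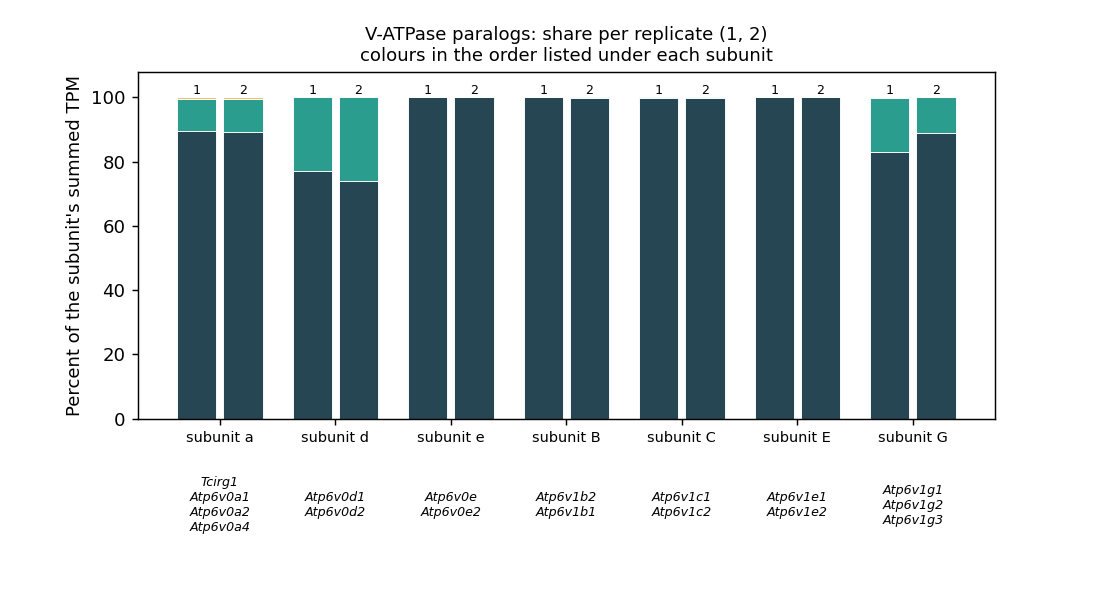
Percent of the summed TPM of each V-ATPase subunit with more than 1 gene, in replicates 1 and 2; segments follow the order of the symbols listed below each subunit. Tcirg1 holds 89.5% and 89.4% of subunit a, and only subunits a, d and G show a visible share for a further gene.

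Of the cathepsins, Ctsc was highest, with 158 TPM in replicate 1 and 365 in replicate 2; it encodes the dipeptidyl peptidase that activates granule serine proteases. Ctsb, a cysteine protease, had 168 and 316 TPM, so the order of the top genes differed between the libraries. Ctsz, Ctsa, Ctsl, Ctsh and Ctsd, which include the carboxypeptidases cathepsin Z and A and the aspartic protease cathepsin D, lay between 55.2 and 119 TPM. Ctss, the protease that processes the invariant chain of class II molecules, was the lowest expressed cathepsin at 16.9 and 31.4 TPM. Ctsk, the collagenase of osteoclasts, was the only gene under the 1 TPM line, at 0.08 and 0.12 TPM from 3 and 5 counts. The 3 counts of replicate 1 equal the limit that a count of 0 allows. Among 8 further cathepsins, Ctso (2.97 and 7.06 TPM) and Ctsw (2.06 and 1.90 TPM) were expressed.

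Of the membrane proteins, Gpnmb had the highest mean TPM of all 43 genes, from 551 and 1274 TPM (913 ± 511, SD, n = 2). In replicate 1 Tcirg1 lay above it at 734 TPM. Gpnmb (chromosome 6, 49036546 to 49070929, plus strand) encodes a transmembrane glycoprotein of phagocytes, osteoclasts and pigment cells. By mean TPM, Lamp1, a heavily glycosylated protein of the lysosomal membrane, followed with 35.9 and 78.9 TPM. Its relative Lamp2, which serves in fusion with autophagosomes and in chaperone-mediated autophagy, had 19.3 and 84.1 TPM. The tetraspanin Cd63 had 45.3 and 69.2 TPM. Lamp1 lay below Cd63 in replicate 1 and below Lamp2 in replicate 2. The lowest by mean were the cholesterol exporter Npc1, at 18.7 and 35.2 TPM, and the calcium channel Mcoln1, at 21.2 and 30.3 TPM. In replicate 1 Lamp2 lay below Mcoln1, and its range over the replicates overlapped those of the class's other genes except Gpnmb, which lay above them all.

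Of the other lumenal proteins, Psap, the precursor of the saposins that help degrade sphingolipids, was highest at 201 and 171 TPM. Grn, the progranulin precursor, had 84.9 and 149 TPM, and Npc2, which hands cholesterol to Npc1, had 61.5 and 163 TPM. In the second quantification Psap led in replicate 1 only. Its 170 TPM there in replicate 2 lay below Grn at 224 and Npc2 at 194 TPM. The lowest were Gaa, the acid glucosidase that degrades glycogen, with 6.57 and 6.61 TPM, and Lipa, the acid lipase, with 7.93 and 14.9 TPM. Hexa, a subunit of beta-hexosaminidase, had 14.97 and 21.56 TPM. The enzymes of this class lay below its non-enzymatic proteins Psap, Grn and Npc2 in both libraries.

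The MiT factors differed by over an order of magnitude. Tfec, whose expression is known to be high in macrophages and osteoclasts, was highest at 121 and 207 TPM (164 ± 60.6, SD, n = 2), and its values did not overlap those of the other factors. Mitf had 24.96 and 77.51 TPM, and Tfe3 8.33 and 11.6 TPM. Tfeb, the best studied activator of the CLEAR genes, was lowest at 2.76 and 2.80 TPM from 77 and 116 counts, and by mean TPM it was the lowest of the 42 expressed genes. The position of Tfeb depended on the table: in the second quantification it had 8.61 and 14.0 TPM, above Tfe3 at 8.38 and 12.1, and its mean percentile among expressed protein-coding genes was 46.3 in place of 20.1. Tfe3 moved the other way, from the percentile 56.8 to 43.5. Tfec and Mitf led in both tables. Chromatin RNA says nothing of whether these factors were in the nucleus.

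Mitf (chromosome 6, plus strand) has several promoters, of which the most downstream is known as that of melanocytes and the upstream ones as those of other tissues. Its 8 annotated transcripts fell into an upstream group that starts at 97807052 to 97807058, a group 184740 bases further downstream that starts at 97991792 to 97991921, and transcripts between them. The upstream group held 77.0% of Mitf transcript TPM in replicate 1 and 90.9% in replicate 2. The downstream group held 13.5% and 4.01%. In the second quantification the upstream group was again the largest, with 48.3% and 60.9%, and the downstream group had 31.7% and 21.4%. Much of the upstream share came from Mitf-206, a transcript annotated as retaining an intron, with 44.8 and 59.8% in the first quantification. It held 34.1 and 47.3% in the second. The other upstream transcripts, Mitf-202 and Mitf-207, held 31.1 and 29.4%, and 1.04 and 1.72%, in the first quantification, above the downstream group. In the second they held 13.3 and 12.9%, and 0.92 and 0.75%, below the downstream group. Transcripts that share exons are hard to assign, and the tables differed more than the replicates did. The melanocyte markers Tyr, Tyrp1 and Mlana had 0 counts in both libraries, and the summed level of all 6 such markers was 0.14 and 0.37 TPM. In the second quantification their sum was 1.06 and 3.68 TPM, most of it from Dct at 0.80 and 2.999 TPM, Tyr had 0.11 and 0.35 TPM, and Tyrp1 and Mlana again had 0 counts.

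**Figure D3:**
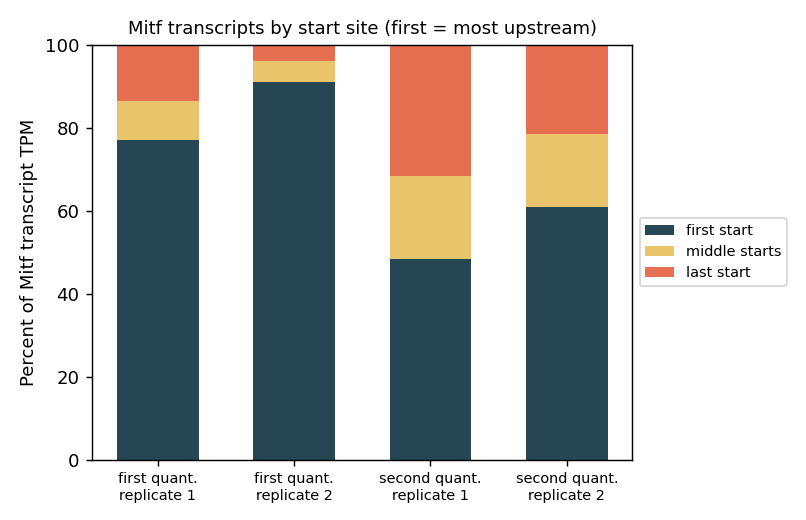
Percent of Mitf transcript TPM by start group, in each replicate and quantification: upstream (dark), between (yellow) and downstream (orange). The upstream group, with its transcript Mitf-206 that is annotated as retaining an intron, is the largest in all 4 bars, from 48.3 to 90.9%.

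Many of these genes carried much of their TPM on transcripts annotated as retaining an intron. Of the 42 expressed genes, 31 have such a transcript in GENCODE M21. The median share of TPM on them was 50.5% in replicate 1 and 53.0% in replicate 2 (SD of these medians 1.75%, n = 2). With each gene's share first averaged over the replicates, the median was 52.3%. Over 5233 expressed protein-coding genes with such a transcript the median was 45.9%, with quartiles of 29.4 and 62.5%. A share above 50% was seen in 18 of the 31 (58.1%) and in 43.1% of those protein-coding genes. In counts rather than TPM, which do not weight short transcripts up, the medians were 34.8% and 29.3%.

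The highest shares were in Npc2 with 87.4 and 84.9%, Tfe3 with 81.7 and 84.9%, and Atp6v1b2 with 82.3 and 83.8%. The lowest were in Ctsd with 13.6 and 18.3%, Tfeb with 18.8 and 17.5%, and Lamp2 with 21.5 and 22.1%. These extremes did not overlap and were alike in both libraries. Npc1, Mcoln1 and Atp6v1h differed most between the libraries, Mcoln1 with 25.4 and 50.5%. By gene, the transcript with the highest mean share was annotated as protein-coding for 25 of the 43, as retained intron for 16 and as processed transcript for 2, Atp6v0c and Lamp2. Tcirg1 was among the 16: a transcript of 1066 bases led, with 24.4 and 21.5% of its TPM.

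**Figure D4:**
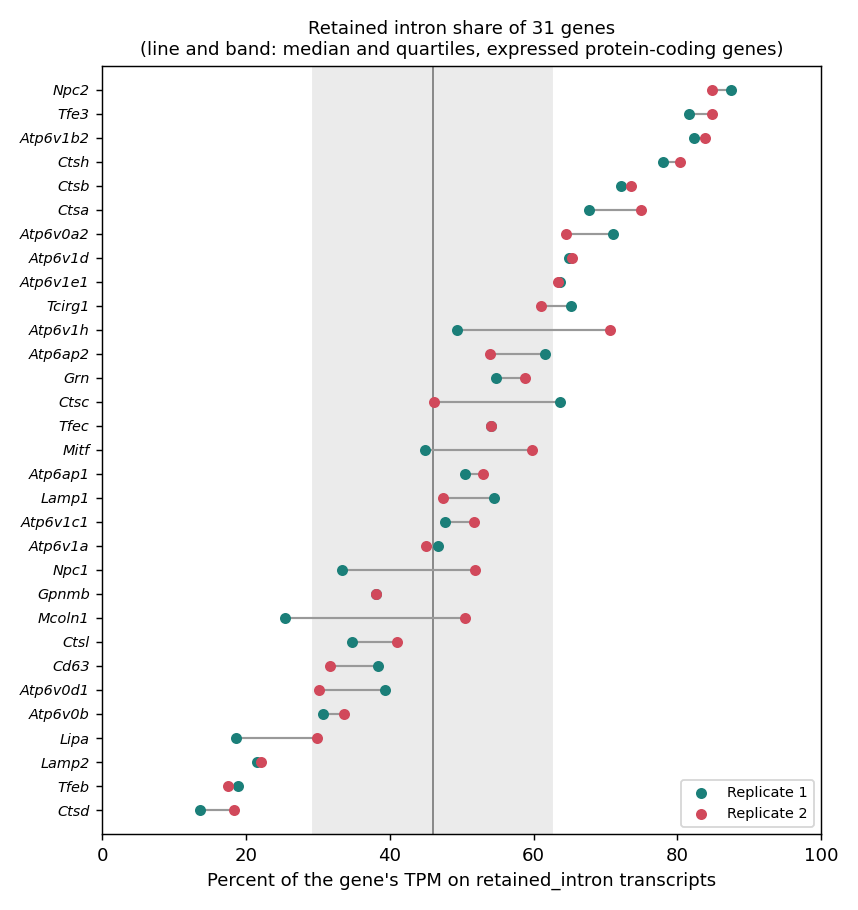
Percent of TPM on transcripts annotated as retained_intron for the 31 expressed genes that have one, in replicate 1 (green) and replicate 2 (red). The line and band give the median (45.9%) and quartiles (29.4 and 62.5%) over expressed protein-coding genes; the genes run from Ctsd to Npc2 across and beyond the band.

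The libraries were then compared gene by gene on counts scaled by TMM, which removes the shift in library makeup. With 1 library on each side, this compares 2 libraries of the same condition, and no p-value was computed. Of the 43 genes, 42 had the summed count of 20 needed, and 2 were apart by 2-fold or more, against 13.6% of all 14442 genes tested and 10.5% of protein-coding genes. Lamp2 was 2.20-fold higher in replicate 2 (log2 ratio 1.14), from 1563 and 7239 counts, where 8.03% of all tested genes were higher. Psap was lower (log2 ratio -1.20), from 14200 and 13046 counts, where 5.59% were lower. The median log2 ratio of the 42 genes was -0.09, and that of tested protein-coding genes was -0.09, with 22 genes above the latter and 20 below.

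Class medians of the log2 ratio ran from -0.34 for the lumenal proteins to 0.03 for the membrane proteins. Neighbours in function went apart: Lamp1 had 0.31 where Lamp2 had 1.14, and Npc2 had 0.50 where Psap had -1.20. Both calls were kept under DESeq2's size factors, by which 13.7% of all tested genes were called. At 1.5-fold 10 of the 42 were apart, against 37.1% of all tested genes, and with library size alone 7 were apart by 2-fold, against 29.1%. In the second quantification, where 10.5% of 24106 tested genes were 2-fold apart and 5.32% were lower, Psap (-1.34) remained, Ctsd (-1.06, against -0.81) was added, and Lamp2 (0.84) was not past 2-fold. The macrophage markers Csf1r and Itgam were also lower in replicate 2 by 2-fold or more, at -1.16 and -1.24, as was the osteoclast marker Itgb3 at -1.13, and their part in the difference of Psap was not tested.

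**Figure D5:**
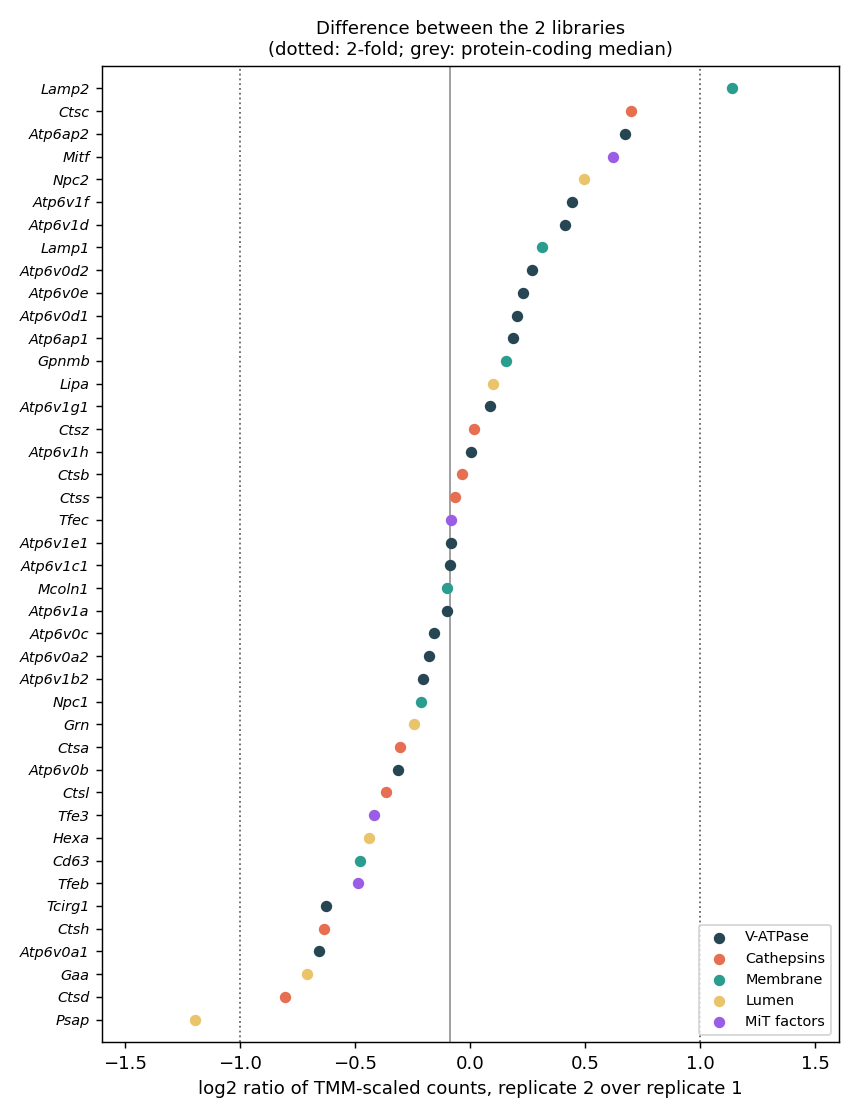
log2 ratio of TMM-scaled counts, replicate 2 over replicate 1, for the 42 genes tested, coloured by class; dotted lines mark 2-fold and the grey line the protein-coding median (-0.09). Lamp2 lies beyond the line on the right and Psap beyond that on the left.

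Other lysosomal genes gave the surroundings of the 43. Of 38 further genes for lysosomal enzymes and membrane proteins, 30 were expressed and 0 of the 38 tested were 2-fold apart. Their highest was Cln3, a membrane protein mutated in Batten disease, at 380 and 567 TPM, and their lowest expressed gene was Glb1, beta-galactosidase, at 1.23 and 1.41 TPM. The list's median was 4.95 and 8.03 TPM, against 35.7 and 69.2 for the 43 genes, but neither list was chosen blind to these data. Of 16 genes that place mTORC1 on the lysosome and control MiT factors such as Tfeb, 10 were expressed. Highest was Fnip2, a partner of folliculin, at 152 and 233 TPM. The lowest expressed was Lamtor5, a Ragulator subunit, at 1.28 and 4.07 TPM. None of the 14 tested was past 2-fold.

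The label of the cells was checked against marker genes. Of 8 macrophage markers 7 were expressed: Adgre1 at 80.2 and 171 TPM, Cd14 at 68.1 and 117, Mertk at 39.9 and 68.9, Csf1r at 45.6 and 40.7, Lyz2 at 35.74 and 42.96, Spi1 at 18.1 and 19.4, and Itgam at 4.19 and 2.96. Fcgr1 lay at 0.93 and 2.09 TPM, just outside. Since Tcirg1, Atp6v0d2 and Ctsk are also osteoclast genes, 8 osteoclast markers were read. The receptor Tnfrsf11a, at 37.0 and 56.9 TPM, and Nfatc1, at 7.68 and 10.1 TPM, were expressed, Calcr had 0 counts, and Dcstamp, Ocstamp, Oscar and Mmp9 had at most 9. Itgb3 lay under the line at 0.79 and 0.71 TPM. In the second quantification Ocstamp was expressed, at 3.39 and 7.14 TPM, and Calcr again had 0 counts. Summed levels were 293 and 466 TPM for macrophage, 45.5 and 68.0 for osteoclast, 0.69 and 1.72 for fibroblast, and 0.52 and 0.30 for neutrophil markers. In bulk RNA, fewer cells of a type and less RNA per cell cannot be told apart.

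Overlapping genes limit some of these values. No source used here states a strand setting for the counting, and reads of a gene and of a partner on the opposite strand may not be separated. Reads of genes on the same strand are not separated by any strand setting. Overlaps were taken over whole gene spans, introns included, so the reads shared were not measured. An annotated gene overlapped 18 of the 43, and for 8 of them its counts came to over 10% of the member's own in at least 1 replicate. They were Ctsa (Pltp, 48.4 and 51.3%), Npc1 (Rmc1, 42.1 and 32.1%), Lamp1 (Grtp1, 33.4 and 40.8%), Ctsc (Gm26522, 19.7 and 21.3%), Ctsd (Gm49369, on the same strand, 13.1 and 16.0%), Ctss (Hmgb1-ps5, on the same strand, 9.76 and 22.8%), Atp6v1e1 (Slc25a18, 11.2 and 13.6%) and Ctsz (Nelfcd, 10.5 and 6.46%). These percentages set the counts of whole genes against each other. The overlap itself was 32 bases for Atp6v1e1 and 10 for Ctsz, against 557 to 6757 bases for the other pairs listed. Tcirg1, Gpnmb, Tfec, Tfeb, Psap and Lamp2 overlapped no other annotated gene.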

How the data were processed

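Per the file headers and the text deposited with each library, the authors deposited per-gene and per-transcript tables of expected counts and TPM made by aligning reads to the GENCODE M21 transcriptome (mm10). They also deposited a second transcript table of estimated counts and TPM made from the reads and a transcript index. The gene tables also hold a deposited posterior SD of each count (entered as a score), which was 1.39% of the count for Ctsd in replicate 1, the largest share there among these genes. No aligner, quantifier or version is named in the sources used here. In all, 26345 rows that matched no annotated gene (0.409 and 0.277% of counts) were left out.

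The members and lists were chosen with earlier results of these data known. Symbols were matched to gene identifiers through the second transcript table. Expected counts were rounded, scaled with TMM (edgeR 4.0.16, R 4.3.3; factors 0.810 and 1.24), and expressed as log2 ratios with a prior count of 0.5 for genes whose summed count reached 20. That step was tested on simulated data. Retained intron shares are percent of transcript TPM. Motifs were searched in RefSeq windows with Python 3.11.15. The lowest level resolved, 3 counts, was 0.140 and 0.101 CPM. Alternatives were the second quantification, TPM over protein-coding genes, DESeq2 1.42.0 size factors, library size, other thresholds and either replicate alone.

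Values per replicate are given for the 2 highest and 2 lowest genes of every class, the MiT factors, genes 2-fold apart, the 3 highest and lowest retained intron shares, genes whose percentile differed by over 10 points between quantifications, and the highest and lowest expressed gene and expressed markers of other lists. Ctsl, and values of further members, were added after they were seen.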

Additional observations from a re-analysis of the deposited data

How the results depend on the processing

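The number expressed was 42 under each alternative tried except a threshold of 5 TPM, which gave 38. With TPM rescaled to protein-coding genes, class medians were 145 ± 3.59 (V-ATPase), 412 ± 28.2 (cathepsins), 250.3 ± 65.2 (membrane), 307 ± 48.0 (lumen) and 149 ± 42.0 (MiT factors), so the SDs were smaller relative to the means; the second quantification gave 45.9 for the V-ATPase. Single replicates gave 19.9 to 36.9, 60.5 to 98.0, 28.6 to 74.0, 38.3 to 85.2 and 16.6 to 44.5 TPM in that order. Genes 2-fold apart numbered 7 of 42 with library size only, all higher in replicate 2 (29.1% of all tested genes), and 10 of 42 at 1.5-fold (37.1% of all). The median log2 ratio was 0.52 with library size only (protein-coding 0.52), -0.040 with no filter (-0.046), -0.26 in the second quantification (-0.09), and 0.10 for log2(TPM + 1) relative to protein-coding genes, so its sign changed with the scaling. The median retained intron share was 34.8% in counts, 49.6% in the second quantification (protein-coding 44.1%), and 50.5 to 53.0% in single replicates. The E-box count was 6 with TCACGTGA, 13 with CACGTG or CATGTG (38.2%, against 21.1%) and 3 with TCATGTGA. The cause of these shifts was not tested. No paired analysis was possible because there is 1 group, and leaving out a replicate leaves no ratio between the libraries.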

Other observations

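Some values belong to no comparison above. Atp6v0d2 had 4.37 and 17.2 TPM in the second quantification, against 2.19 and 5.17 in the first, and its mean percentile among expressed protein-coding genes rose by 13.6 points. Lipa had 8.34 and 18.1 TPM there, and its percentile fell by 10.1 points. Ctsl, picked after its values were seen, had 204 and 334 TPM in the second quantification against 67.1 and 98.0 in the first. Over the 42 expressed genes the second table's mean TPM had a median ratio of 1.41 to the first. The rho between the tables over the 43 genes was 0.978, a description over genes from the same reads. The rho of TPM with gene span over the 42 expressed genes was -0.15, against 0.18 over expressed protein-coding genes.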
